A study of Mus musculus with 46 samples.

Results

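Unpredictable postnatal stress (UPS) was compared with control rearing (CTL) in the left hippocampus of P17 Balb/cByj mouse pups, sequenced as bulk RNA. The comparison took the 15 UPS libraries (7 female, 8 male) and the 15 CTL libraries (9 female, 6 male), chosen by their column names, out of 46 libraries of 1 pup each. The other 16 libraries came from pups reared under limited bedding (LB) and were used only to place the UPS values. The labels name no allele or drug for any group, and all pups were 17 days old and were anesthetized with chloral hydrate before dissection. The female UPS pup 1 carries an LB entry in its stress label beside a UPS title and column name, and it was kept as UPS. The labels give the rearing conditions only by reference to an earlier description and do not tie pups to litters. Littermates are among the pups, so the tests take related pups as independent, which makes p-values too small to the extent that pups of 1 litter are alike.

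As background, LB thins the bedding of the nest and fragments maternal care, and UPS as this laboratory has described it adds unpredictable separations from the dam and disruption of the nest. Such procedures act on a hippocampus that is still being built. At this age oligodendrocyte progenitors are turning into cells that wrap axons in lipid-rich myelin, granule neurons are still maturing in the dentate gyrus, and inhibitory synapses are being refined. Glucocorticoids released from the adrenal gland under stress enter the brain and switch on a set of genes through the glucocorticoid receptor. Sterol supply to growing membranes is set by a feedback loop in which INSIG1 holds the SREBP transcription factors in the endoplasmic reticulum when sterol is plentiful.

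The values are TPM, the share of a transcript among all transcripts of a library, scaled to a fixed total. The genes whose mean reached 3 TPM in UPS or CTL pups were tested as log2(TPM + 1) in limma with sex as a covariate, and differences below are on that log2 scale, which understates the change of low genes. A gene is said to have risen or fallen where its Benjamini-Hochberg adjusted p was under 0.05. Read depth cannot be recovered from TPM, and the precision of a single value is therefore unknown. Between 21300 and 24380 genes lay above 0 TPM in a library and mitochondrial transcripts took 9.89% to 14.2% of the TPM. The female UPS pup 2 stood apart, with a median correlation to its own group of 0.938 against 0.979 to 0.984 in the other 29 libraries. The female CTL pup 9 lay at 8.74 on the first principal component, among the males (4.57 to 18.0). The other females apart from UPS pup 2 lay between -16.98 and -4.52. Its sex genes were female, as Xist ran from 113 to 206 TPM and Ddx3y was 0 in all females. Its column header gives an earlier name without the female suffix. The hippocampal neuron markers Prox1, Wfs1, Fibcd1 and Spink8 were present in all 30 libraries, while the choroid plexus gene Ttr ranged from 1.45 to 642 TPM in CTL and from 5.59 to 1360 TPM in UPS pups. None of the tested members of the choroid plexus (6), meningeal (11), ependymal (8) or thalamic (13) lists passed the test at an adjusted p under 0.05.

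Of 13184 genes tested, 1415 differed between UPS and CTL (10.7%), of which 771 were higher (5.85%) and 644 were lower (4.88%) in UPS pups. The differences were small. The median size was 0.17 for genes that rose and 0.23 for genes that fell, and 23 rising and 72 falling genes differed by more than 0.4. Without the female UPS pup 2, 1263 genes rose (9.58%) and 979 fell (7.43%), and 1361 of the 1415 genes were called again in the same direction. That is 96.2% of the 1415 and 60.9% of the 2236 genes called without that pup that were also tested with it.

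Plekho2 was the one gene of the 13184 whose UPS and CTL pups did not overlap (0.00758% of genes). It encodes a pleckstrin homology domain protein, lies at chr9:65552698-65580040 in the mm10 build, and was singled out after its values were seen. It lay between 13.3 and 17.9 TPM (median 15.1) in CTL pups and between 6.20 and 13.2 TPM (median 11.4) in UPS pups. Every UPS pup was below every CTL pup, by a narrow margin at the edge. The difference was -0.47 (SE 0.07, limma adjusted p = 2.2e-04). LB pups lay between 8.84 and 15.3 TPM (median 13.1) and overlapped both groups.

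The test of what UPS adds to LB is the direct contrast of UPS with LB. At an adjusted p under 0.05, 5 of 13160 genes (0.038%) differed between UPS and LB pups, of which 3 were higher (0.0228%), Rin2, Thrsp and Lrrc8c, and 2 were lower (0.0152%), Insig1 and Id3, and 1718 genes had an unadjusted p under 0.05. All 5 also differed between UPS and CTL pups, and the contrasts share the UPS libraries. Their LB and CTL medians lay close together, with LB minus CTL differences between -0.06 for Rin2 and 0.08 for Id3, none of which was among the 1051 genes (7.96%) called between LB and CTL. Leaving out the female UPS pup 2 raised the count of UPS against LB to 22 genes.

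**Figure D1:**
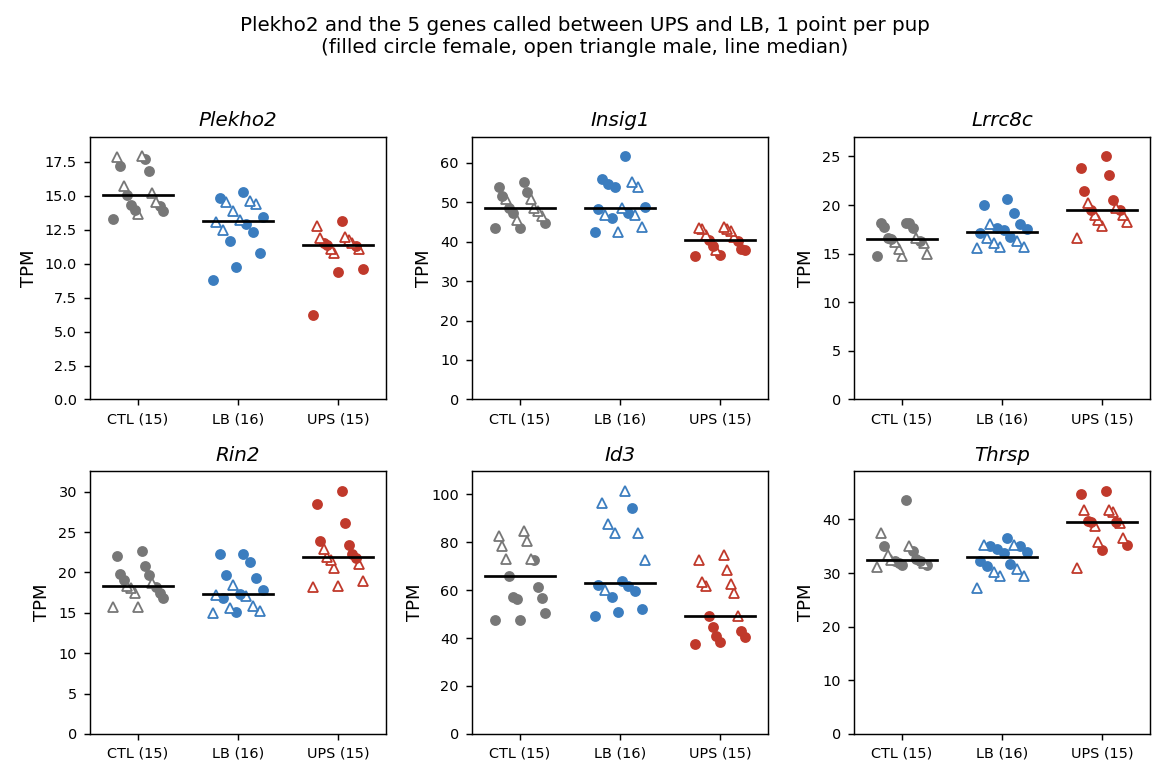
TPM of Plekho2, Insig1, Lrrc8c, Rin2, Id3 and Thrsp in each of 15 CTL, 16 LB and 15 UPS pups, with filled circles for females, open triangles for males and a line at the median. UPS pups lie below the LB median of 48.4 TPM for Insig1 without exception, and the lowest Plekho2 value in the plot, 6.20 TPM, is a UPS female.

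Insig1 had the smallest p-value of the comparison with CTL. It lay between 43.4 and 55.2 TPM (median 48.4) in CTL pups, between 42.4 and 61.5 TPM (median 48.4) in LB pups, and between 36.3 and 43.6 TPM (median 40.5) in UPS pups. Of the 15 UPS pups, 14 were below the lowest CTL pup, and the remaining one was just above it. The difference of UPS was -0.27 from CTL (SE 0.04, limma adjusted p = 1.8e-04) and -0.29 from LB (SE 0.05, limma adjusted p = 0.0039). Thrsp, which encodes a nuclear protein that promotes fatty acid synthesis and responds to thyroid hormone, went the other way. It lay between 31.2 and 43.5 TPM (median 32.5) in CTL, between 27.2 and 36.5 TPM (median 33.0) in LB and between 31.0 and 45.3 TPM (median 39.5) in UPS pups, with overlap among all 3 groups. The difference was 0.21 from CTL (limma adjusted p = 0.0090) and 0.26 from LB (limma adjusted p = 0.012).

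The promoters of these 2 lipid genes are shown because they moved in opposite directions in UPS pups. The sequences are RefSeq's, in GRCm38.p6, each running from 250 bases before to 50 bases after the annotated start, 5′ to 3′ on the gene's own strand. Capitals mark CCAAT or its reverse complement ATTGG, the letters bound by NF-Y, and the palindrome CACGTG, an E-box; both motifs are known from sterol-regulated promoters.
Insig1, chr5:28071162-28071461, plus strand: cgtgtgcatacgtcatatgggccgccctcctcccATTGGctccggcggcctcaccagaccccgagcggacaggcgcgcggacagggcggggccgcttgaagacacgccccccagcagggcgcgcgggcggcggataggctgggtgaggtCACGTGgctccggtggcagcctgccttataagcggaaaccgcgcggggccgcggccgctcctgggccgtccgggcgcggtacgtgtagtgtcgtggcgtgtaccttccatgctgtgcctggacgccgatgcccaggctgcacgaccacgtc
Thrsp, chr7:97417501-97417800, minus strand: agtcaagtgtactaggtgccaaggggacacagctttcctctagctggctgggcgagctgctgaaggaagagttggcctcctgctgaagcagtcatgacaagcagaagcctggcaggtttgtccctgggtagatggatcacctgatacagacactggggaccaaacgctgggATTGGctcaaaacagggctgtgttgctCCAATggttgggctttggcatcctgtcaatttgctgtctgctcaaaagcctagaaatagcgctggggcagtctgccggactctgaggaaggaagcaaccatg
Insig1 has ATTGG at position -216 and CACGTG at -101 from the start, and Thrsp has ATTGG at -79 and CCAAT at -52. The promoter of Rin2 holds ATTGG at -112, and those of Id3 and Lrrc8c hold neither motif in this window. CCAAT on either strand occurs in 37.4% and CACGTG in 7.15% of 32851 promoters of the same length, so a match is a description of the letters and not of binding.

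The other 3 genes of the direct contrast belong to trafficking, volume control and transcription. Rin2, a guanine nucleotide exchange factor for the endosomal GTPase Rab5, had medians of 18.3 TPM in CTL, 17.3 TPM in LB and 21.9 TPM in UPS pups. It was higher in UPS by 0.29 than in CTL (limma adjusted p = 0.0016) and by 0.34 than in LB pups (limma adjusted p = 0.0039). Lrrc8c, a subunit of the volume-regulated anion channel, lay between 14.7 and 18.1 TPM in CTL pups and between 16.6 and 25.0 TPM in UPS pups, and 13 of 15 UPS pups were above the highest CTL pup. Its difference was 0.29 from CTL (limma adjusted p = 1.8e-04) and 0.21 from LB (limma adjusted p = 0.013).

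Id3, an inhibitor of bHLH transcription factors and a target of BMP signalling, had medians of 65.8 TPM in CTL, 63.0 TPM in LB and 49.2 TPM in UPS pups. The difference of UPS was -0.37 from CTL (limma adjusted p = 5.0e-04) and -0.45 from LB (limma adjusted p = 0.0085). Within the list of Id, Hes and inhibitory Smad genes, 3 of 19 fell and 1 rose (21.1% called, against 10.7% of all genes). Over all genes, 4.88% fell and 5.85% rose. Those that fell were Id3, the Notch target Heyl (-0.33) and Smad7 (-0.26), an inhibitor of TGF-beta and BMP signalling. The 1 that rose was the Smad corepressor Skil (0.22).

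In the list for sterol and fatty acid synthesis, 3 of 32 genes fell and 0 rose, which is 9.38% called and near the 10.7% over all genes. The list median was -0.06 against -0.00022 over all genes tested. Among them were Insig1 and Srebf1, the transcription factor of fatty acid synthesis. Srebf1 had medians of 21.1 TPM in CTL and 17.6 TPM in UPS pups and differed by -0.31 (limma adjusted p = 0.0017). None of the enzymes of cholesterol synthesis in the list passed the test with all 30 libraries. Hmgcs1, an early enzyme of the pathway, differed by 0.03 (limma adjusted p = 0.89), and the female UPS pup 2 held its lowest value, 143 TPM. Without that pup Hmgcs1 rose by 0.14 (limma adjusted p = 0.017), and 3 genes of the list rose and 4 fell.

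Myelin genes formed the largest group of decreases among the lists. Of 38 tested genes of myelin and mature oligodendrocytes, 24 were lower in UPS pups (63.2%, against 4.88% of all genes) and 0 were higher, with a list median of -0.52. The summed level of the list ran from 2051 to 5340 TPM (median 3591) in CTL and from 1580 to 4332 TPM (median 2935) in UPS pups, so the groups overlapped widely. Among the genes with the largest decreases were Mal, a raft protein of compact myelin (-0.996), Gjb1, an oligodendrocyte connexin (-0.85), Nkx6-2, a transcription factor of maturing oligodendrocytes (-0.84), Ermn, a cytoskeletal protein of the sheath (-0.83), and Fa2h, which makes hydroxylated myelin lipids (-0.72). Mal lost its call without the male CTL pup 3 (limma adjusted p = 0.054) or the female UPS pup 6 (limma adjusted p = 0.052), and Ermn without the same pups (limma adjusted p = 0.054 and 0.055). With the GC and length trend removed as described below, 21 of the list fell and 0 rose.

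Mog, a surface protein of the outer myelin layer, lay between 32.1 and 112 TPM (median 76.4) in CTL, between 10.1 and 79.999 TPM (median 32.4) in LB and between 16.2 and 90.9 TPM (median 51.9) in UPS pups. Of 15 UPS pups, 6 were below the lowest CTL pup and none was above the highest. The difference from CTL was -0.84 (SE 0.22, limma adjusted p = 0.016), with -0.93 in males and -0.75 in females. Mbp, the major adhesive protein of compact myelin, had medians of 820 TPM in CTL, 462 TPM in LB and 607 TPM in UPS pups and differed by -0.54 between UPS and CTL (limma adjusted p = 0.025). The list median was -0.68 for LB against CTL, 0.20 for UPS against LB, and 0 members of the list passed the test of UPS against LB. In bulk tissue, fewer cells of a type and less RNA per cell cannot be told apart.

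The lists of earlier stages of the lineage had called shares below or near the 10.7% of all genes. In the list of oligodendrocyte progenitors, 1 of 25 genes fell and 0 rose (4% called). The 1 was Olig1 (-0.33, limma adjusted p = 0.0073), a transcription factor needed for maturation. The progenitor receptor Pdgfra differed by 0.04 (limma adjusted p = 0.54). In the list of committed and newly formed oligodendrocytes, 2 of 16 rose and 0 fell (12.5% called). They were Rras2, a Ras-related GTPase (0.24), and Fyn, a Src family kinase of oligodendrocyte maturation (0.10). Most of the list leaned the other way, with 12 of 16 differences negative and a list median of -0.09.

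**Figure D2:**
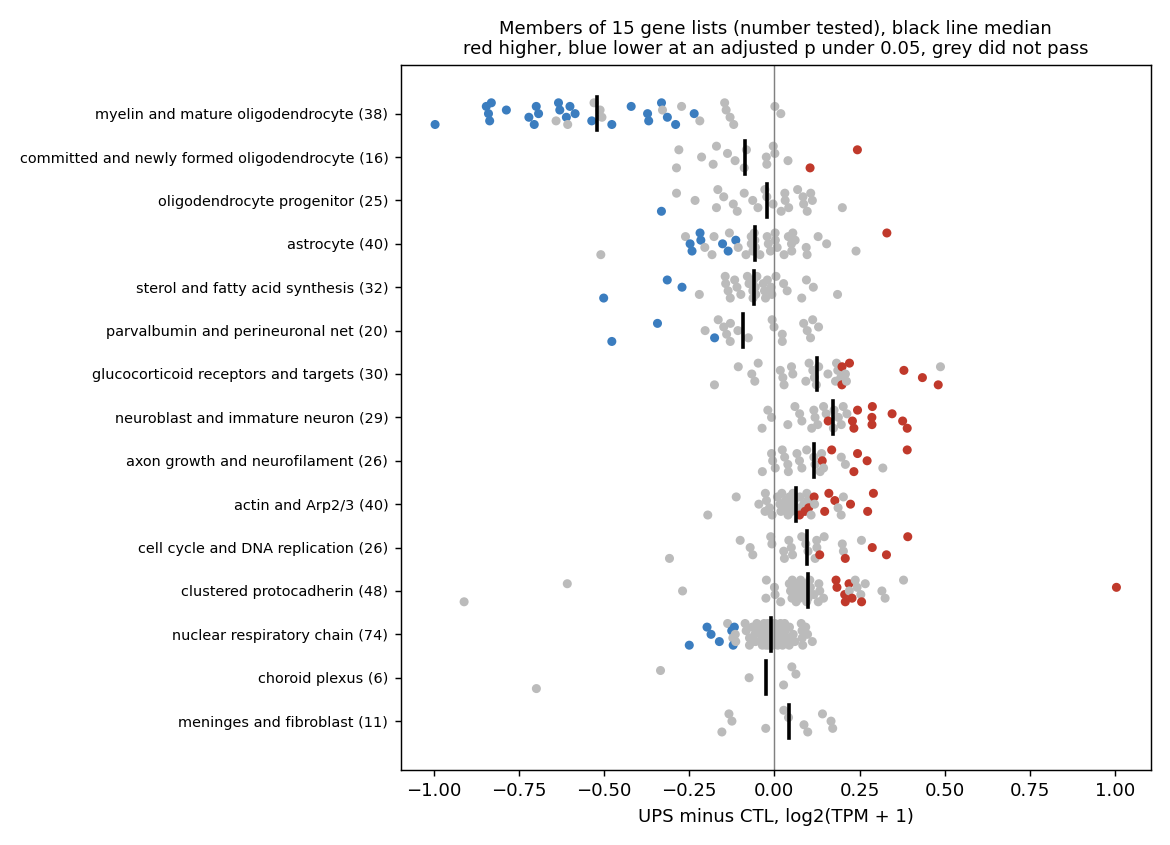
Difference between UPS and CTL on the log2(TPM + 1) scale for each tested member of 15 gene lists, red for higher, blue for lower and grey for not passed at an adjusted p under 0.05, with a black line at the list median. The myelin list lies to the left with a median of -0.52, and the immature neuron list to the right with a median of 0.17.

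Of 29 tested neuroblast and immature neuron genes, 10 were higher in UPS pups (34.5%, against 5.85% of all genes) and 0 were lower, with a list median of 0.17, and without the female UPS pup 2 22 of 30 tested rose and 0 fell. Dcx, the microtubule protein that marks migrating and newly born neurons, lay between 19.98 and 39.3 TPM (median 27.1) in CTL, between 25.7 and 46.1 TPM (median 36.5) in LB and between 30.7 and 43.2 TPM (median 34.3) in UPS pups. It differed from CTL by 0.38 (SE 0.07, limma adjusted p = 0.0016), with 0.42 in males and 0.34 in females, and all 15 UPS pups lay above the CTL mean of their sex. The others that rose were Dpysl3 (0.39) and Stmn2 (0.24), which regulate the growth cone cytoskeleton, the bHLH factors Neurod1 (0.29) and Neurod6 (0.16), the surface protein Cd24a (0.29), the transcription factors Sox4 (0.23) and Sox11 (0.29), St8sia2 (0.35), which adds polysialic acid to NCAM, and the RNA-binding protein Mex3a (0.23). Neurod6 was also among the markers of hippocampal principal neurons and did not pass with the GC and length trend removed. Dpysl3 had medians of 107 TPM in CTL, 169 TPM in LB and 156 TPM in UPS pups, and 8 UPS pups were above the highest CTL pup.

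Some genes of axon growth, the actin network and the cell cycle also rose, where 5.85% of all genes rose. In the axon growth list 6 of 26 rose (23.1%) and 0 fell, and 12 rose without the female UPS pup 2. Stmn2 and Dpysl3 are among the 6 and were already counted with the immature neuron genes, so the 2 lists are not separate results. Others of the 6 were Map1b, a microtubule protein of growing axons (0.27), and Gap43 (0.23) and Basp1 (0.14), membrane proteins of the growth cone. In the actin list 10 of 40 rose (25%) and 0 fell, with small differences such as 0.15 for Actr2 and 0.12 for Arpc3, which are subunits of the Arp2/3 complex, and 0.09 for Pfn2, a neuronal profilin. Ttl, which restores tyrosine to tubulin, rose by 0.22 (limma adjusted p = 0.0037). Of 26 cell cycle genes, 5 rose (19.2%) and 0 fell, including Rrm2, the ribonucleotide reductase subunit of replicating cells (0.39), Hmgb2 (0.33) and Cdk6 (0.29).

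**Figure D3:**
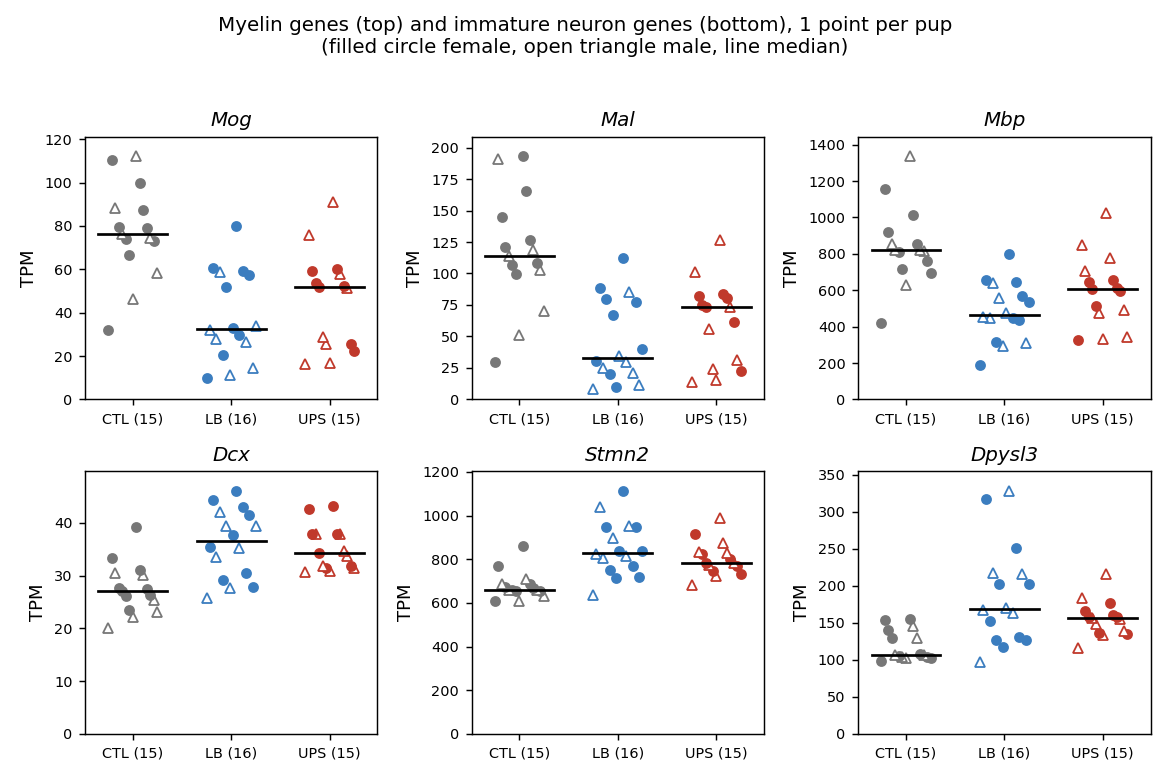
TPM of Mog, Mal and Mbp (top) and Dcx, Stmn2 and Dpysl3 (bottom) in each CTL, LB and UPS pup, filled circles for females and open triangles for males, with a line at the median. The UPS median of Mog, 51.9 TPM, lies between the LB median of 32.4 TPM and the CTL median of 76.4 TPM, while the UPS and LB medians of Dcx, 34.3 and 36.5 TPM, both lie above the CTL median of 27.1 TPM.

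Within the list of glucocorticoid receptors and targets, 6 of 30 genes rose (20% called, against 5.85% of all genes higher) and 0 fell, at a list median of 0.13. They were Tsc22d3, which encodes the anti-inflammatory protein GILZ, Klf9, a transcription factor induced by glucocorticoid and thyroid hormone, Cdkn1a, a cell cycle inhibitor, Errfi1, a feedback inhibitor of EGF receptors, Hif3a, a member of the hypoxia factor family, and Ddit4, an inhibitor of mTORC1. Ddit4 was at the edge (0.22, limma adjusted p = 0.0497) and lost its call in 19 of the 30 fits that left out 1 library. The list median was 0.01 for LB against CTL and 0.16 for UPS against LB, and 0 members passed the test of UPS against LB.

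Tsc22d3 lay between 54.6 and 87.9 TPM (median 80.3) in CTL, between 58.3 and 94.2 TPM (median 76.4) in LB and between 77.6 and 333 TPM (median 90.8) in UPS pups. The male UPS pups, at 82.9 to 91.4 TPM, were all above the male CTL pups, at 59.5 to 80.4 TPM. The value of 333 TPM was the female UPS pup 2, and the next highest UPS pup was at 119 TPM. The difference was 0.43 (SE 0.13, limma adjusted p = 0.027), and 0.30 without that pup (limma adjusted p = 0.0026). Hif3a had medians of 3.64 TPM in CTL, 4.00 TPM in LB and 5.34 TPM in UPS pups and differed by 0.48 (limma adjusted p = 0.017).

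The same pup held the highest value of Klf9 (305 TPM), Cdkn1a (48.7 TPM), Txnip (158 TPM) and Apold1 (29.6 TPM). Without it 9 of the 30 genes rose and 0 fell, and Klf9 differed by 0.16 (limma adjusted p = 0.0013) in place of 0.20 (limma adjusted p = 0.0072). Txnip, an arrestin that limits glucose uptake, differed by 0.53 with it and 0.37 without it, and Apold1, an endothelial gene of acute responses, by 0.60 with it and 0.41 without it. Fkbp5, a chaperone of the glucocorticoid receptor and a standard target, did not pass (0.19, limma adjusted p = 0.14), nor did Sgk1, a kinase induced by corticosteroids (0.18, limma adjusted p = 0.20), Per1, a clock gene (0.12, limma adjusted p = 0.43), or the receptor gene Nr3c1 (0.21, limma adjusted p = 0.064). These 4 were chosen after their values were seen. Of the UPS and CTL pups, the female UPS pup 2 held the highest value of Fkbp5 (109 TPM), Sgk1 (180 TPM) and Per1 (77.0 TPM). It held the lowest UPS value of Nr3c1 (45.8 TPM), so the 4 differences and their tests depend in part on that pup.

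**Figure D4:**
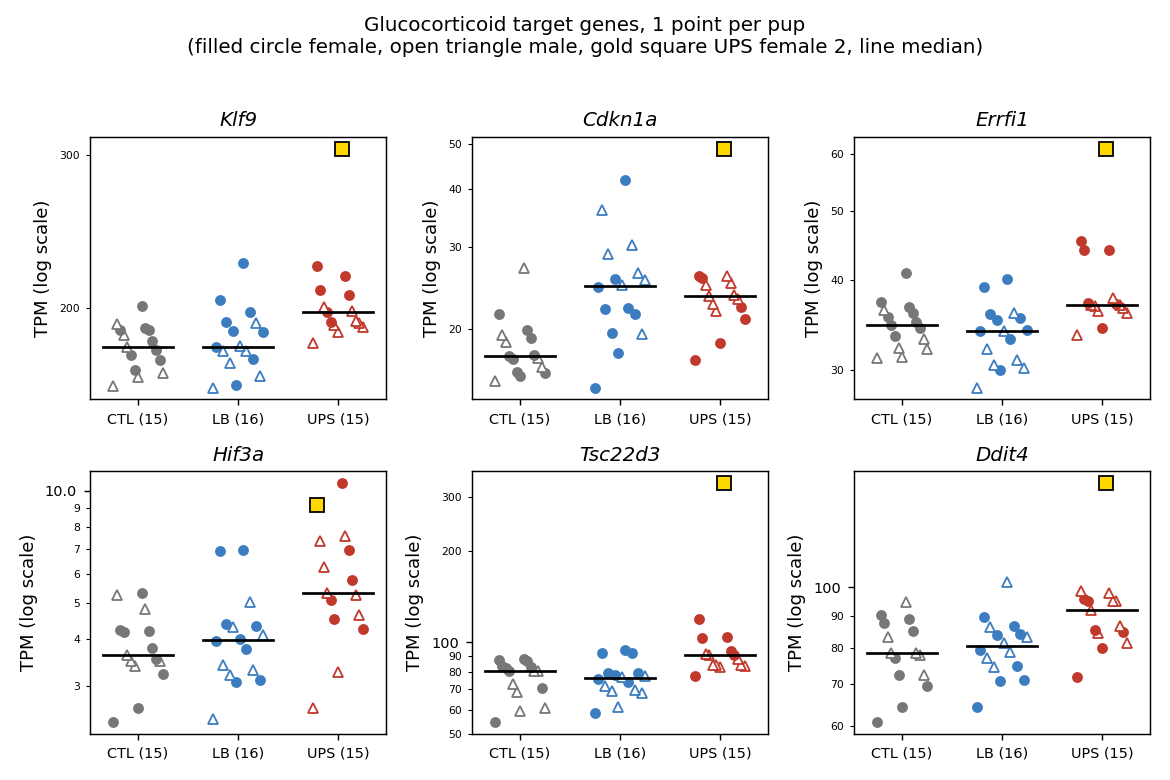
TPM on a log scale of the 6 glucocorticoid target genes that rose, in each CTL, LB and UPS pup, filled circles for females, open triangles for males, a gold square for the female UPS pup 2 and a line at the median. That pup is the highest of all for 5 of the genes, with Tsc22d3 at 333 TPM, and the other UPS pups reach 119 TPM.

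Of 29 immediate early genes, 2 were higher and 3 were lower (17.2% called, against 10.7% of all genes). Fosb rose from a median of 4.14 to 5.52 TPM (0.32, limma adjusted p = 0.0034) and 10 UPS pups were above the highest CTL pup. Fos rose by 0.40 (limma adjusted p = 0.031) and did not pass without the male CTL pup 7 (limma adjusted p = 0.056). Jun (-0.17), Jund (-0.22) and the orphan receptor Nr4a1 (-0.24) fell, and without the female UPS pup 7 none of the 29 was lower. With the GC and length trend removed as described below, 3 of the list were higher and 0 were lower, so these decreases did not pass there. The level of Jund differed between female and male libraries. Its medians were 119 TPM in female and 200 TPM in male CTL pups, and 100 TPM in female and 170 TPM in male UPS pups. It was lower within each sex, although the median over both sexes was 128 TPM in CTL and 146 TPM in UPS pups.

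Single genes of neuronal signalling, taken from several lists, were as follows. Camk4, a calmodulin kinase that phosphorylates CREB, rose from a median of 124 TPM in CTL to 161 TPM in UPS pups (0.39, SE 0.06, limma adjusted p = 3.0e-04), with a median of 158 TPM in LB pups. Ncs1, a neuronal calcium sensor, fell by 0.18 (limma adjusted p = 4.5e-04). In the list that holds both, 3 of 33 rose and 1 fell (12.1% called, against 10.7% of all genes). Of 35 glutamate receptor genes 3 rose and 0 fell (8.57% called, against 10.7% of all genes), namely the NMDA receptor subunit Grin2b (0.29), the metabotropic receptor Grm5 (0.21) and the kainate receptor partner Neto2 (0.25), and without the female UPS pup 2 6 rose and 2 fell. None of these 3 passed with the GC and length trend removed (limma adjusted p = 0.063, 0.076 and 0.10). Cacng5, a regulatory subunit of AMPA receptors, rose by 0.32, and 13 UPS pups were above the highest CTL pup.

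Of 36 genes of interneuron identity, 2 rose and 2 fell, which is 11.1% called and near the 10.7% over all genes. Pvalb, the calcium buffer of fast-spiking interneurons, had medians of 65.3 TPM in CTL, 42.8 TPM in LB and 50.4 TPM in UPS pups and fell by 0.34 in UPS (limma adjusted p = 0.0040). Kcnc1, a potassium channel of the same cells, fell by 0.18. It was 1 of 3 genes of 20 that fell in the parvalbumin list (15%, against 4.88% of all genes). Vamp1, a vesicle protein from the synaptic vesicle list, fell by 0.23. The peptide gene Cck fell by 0.29. Reln, the matrix protein of Cajal-Retzius cells and interneurons, rose from a median of 46.1 TPM to 56.7 TPM (0.29, limma adjusted p = 0.011). From other lists, C1ql2, a synaptic organizer of dentate mossy fibres, fell by 0.37 (limma adjusted p = 0.0036). The pan-interneuron gene Gad1 differed by -0.05 (limma adjusted p = 0.58).

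Of 40 tested astrocyte genes, 7 were lower and 1 was higher (20% called, against 10.7% of all genes). The 1 that was higher was the intermediate filament Vim (0.33). Clu, a secreted lipid-binding chaperone, fell from a median of 969 TPM to 799 TPM (-0.25, limma adjusted p = 0.0086), and the neurotensin receptor Ntsr2 (-0.24), the potassium channel Kcnj10 (-0.22), the transcription factor Sox9 (-0.22), Aldoc (-0.15) and Ndrg2 (-0.14) were also among those that fell. Of 30 microglial genes, 1 was higher and 0 were lower (3.33% called, below the 10.7% of all genes), the higher one being the lipase Lpl (0.21).

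Among the blood genes, 4 of 8 rose and 1 fell (62.5% called, against 10.7% of all genes). The hemoglobin genes Hba-a1 (0.48), Hba-a2 (0.49) and Hbb-bs (0.40) were among those that rose. Hba-a1 lay between 37.4 and 84.0 TPM in CTL and between 54.9 and 177 TPM in UPS pups, the highest being the female UPS pup 2. The 2 alpha globin genes are near copies, so their separate values are uncertain. The count of rising blood genes was 2 without the male CTL pup 3, 1 without the female UPS pup 3 and 2 without the female UPS pup 7. How much blood the tissue held was not measured, and its part in other results was not tested.

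Other large changes had no common list. Acer2, an alkaline ceramidase, rose by 0.54 (limma adjusted p = 0.0025) from a median of 2.74 to 4.68 TPM. Cxadr, an adhesion protein of immature neurons, rose by 0.51, and Emp1, an epithelial membrane protein, and Met, the receptor of hepatocyte growth factor, by 0.51 each. Pcdhgb4 had the largest increase, 1.00, but its values ran from 3.06 to 22.9 TPM in CTL and from 3.11 to 36.7 TPM in UPS pups, and the isoforms of this protocadherin cluster share exons, so the value is uncertain. Dio3, which inactivates thyroid hormone, fell from a median of 7.32 to 4.51 TPM (-0.75, limma adjusted p = 0.029), and did not pass without the male CTL pup 6 (limma adjusted p = 0.060) or the female UPS pup 6 (limma adjusted p = 0.052). The largest decrease was that of Rn7sk (-1.07), a small nuclear RNA of the 7SK complex. It and the 3 microRNA entries Mir6999, Mir3093 and Mir7026, which fell by 0.75 to 0.93, are short genes in libraries of mRNA, and their values are uncertain.

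The direction of the calls followed transcript GC content. Of 5 equal groups of genes by GC content, the lowest (27.5% to 43.8% GC) had 301 that rose and 21 that fell, and in the highest (55.6% to 76.3% GC) 20 rose and 339 fell. When each library's trend with GC content and transcript length was removed, 613 genes rose and 397 fell (7.67% of genes called), and 716 genes were called in the same direction both times. That is 50.6% of the 1415 and 71.2% of the 1006 genes called with the trend removed that were also among those tested before. The myelin, immature neuron and glucocorticoid counts were 21 lower, 10 higher and 6 higher after that step, against 24, 10 and 6 before it. The 7 nuclear respiratory chain genes of 74 that fell (9.46%, against 4.88% of all genes) became 2, with 2 that rose. What part the GC content had in the differences was not tested.

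**Figure D5:**
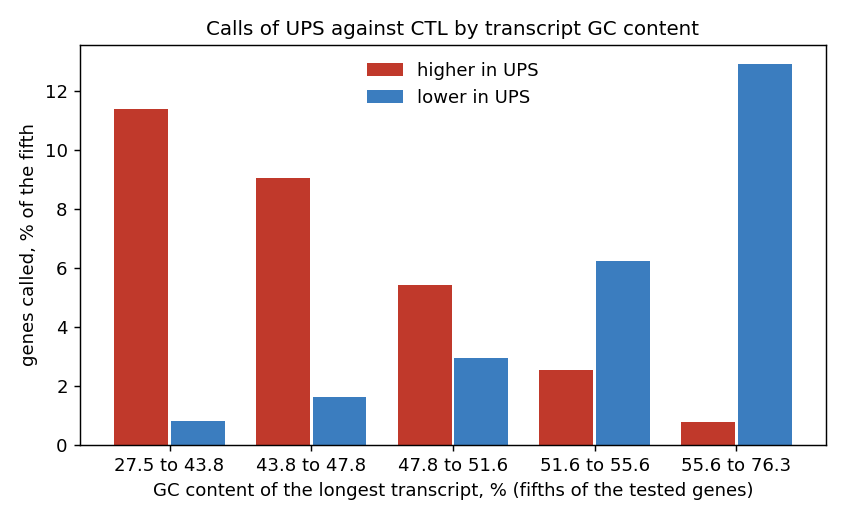
Share of tested genes called higher (red) and lower (blue) in UPS than in CTL pups, in % of each of 5 equal groups of genes by GC content of the longest transcript, from lowest to highest. The share of higher calls falls from 11.4% to 0.76% and the share of lower calls climbs from 0.798% to 12.9%.

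The response was also compared between the sexes. No gene passed the test of the difference between the male and the female response in limma, while 486 genes had an unadjusted p under 0.05. Of the 771 genes that rose, 771 had a positive difference in both sexes, and of the 644 that fell, 643 had a negative difference in both. Over all 13184 genes tested, 8913 had the same direction in both sexes. The called genes were chosen on both sexes together, which nearly fixes this agreement in advance, so it is no test of a shared response. Within each sex fewer genes passed, 5 in males (0.0379%) and 216 in females (1.64%). With the female CTL pup 9 counted with the males, among which its library lay, these became 37 and 92. Between libraries labelled male and female 5167 genes (39.2%) differed beside rearing, against 10.7% between UPS and CTL. The CTL pup 9 was female by its sex genes but lay with the males, so this count cannot be read as sex alone. What part sex or the handling of the libraries had in it was not tested.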

How the data were processed

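RNA from the left hippocampus was made into mRNA libraries and sequenced paired-end. Per the labels and the methods of the study, the authors trimmed the reads, aligned them to mm10 with HISAT2 and deposited TPM from StringTie for 52636 genes. Tool versions were not given in the sources used here. Tables by the authors of DESeq2 log2 fold changes and p-values were deposited too and were not used. Depth is unknown, so TPM precision is unknown. Of the table, 1 gene (Cav2) with a text cell was left out.

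The tests ran in limma 3.58.1 (R 4.3.3) on log2(TPM + 1), with a variance trend, rearing and sex, and Benjamini-Hochberg adjustment over all genes tested. UPS against LB was fitted the same way, and the sex difference as an interaction. GC content and length come from GENCODE M21 (99.7% of gene identifiers matched without version), and their trend was removed per library with natural splines of 4 degrees of freedom each. Figures were drawn with matplotlib.

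Genes named are the 14 largest changes each way without predicted genes, the smallest p-values of each list, the leading genes of UPS against LB and of the interaction, and genes said to be chosen after seeing their values; not all are printed. Rules, lists and members were chosen with earlier results of these data known. On simulated data for UPS against CTL with 13184 genes, 200 of them changed, the test recovered 37.3% of log2 changes of 0.2, 95.5% of 0.4 and 98.5% of 0.8, and 2.53% of its calls were unchanged genes. The simulated noise was independent between genes and libraries, without the GC trend, the outlying pup or the littermates of the real data. The 2.53% therefore does not carry over to the 1415 calls. The alternatives were other pseudocounts, filters, scalings and variance models, rearing alone, the female number 9 pups with the males, sample number as a block, all 46 libraries, each library left out, and, added after seeing the data, the GC and length trend. Results for some genes are not reported here.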

Additional observations from a re-analysis of the deposited data

Results flagged for a closer look

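For 31 genes given with their pup values, each of the 4 groups by rearing and sex was searched for a value far from the rest of its group, which chance alone gives in about 1 in 20 groups. Of 124 groups, 14 held one, and 6 of these were the female UPS pup 2. That pup was high for Tsc22d3 (333 TPM against 77.6 to 119 TPM in the other UPS females), Txnip (158 TPM against 34.4 to 48.5 TPM) and Apold1 (29.6 TPM against 3.91 to 6.53 TPM). It was also high for Klf9 (305 TPM against 192 to 223 TPM), Cdkn1a (48.7 TPM against 17.1 to 26.0 TPM) and Hba-a1 (177 TPM against 54.9 to 104 TPM).

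The female CTL pup 6 held 3 such values, with Thrsp at 43.5 TPM against 31.4 to 35 TPM, Reln at 35 TPM against 44.7 to 51.8 TPM and Pcdhgb4 at 22.9 TPM against 3.54 to 5.50 TPM in the other CTL females. The remaining 5 were single values. Insig1 was at 37.9 TPM in the male UPS pup 8 against 41.1 to 43.6 TPM, Camk4 at 162 TPM in the female CTL pup 2 against 114 to 138 TPM, and Cdkn1a at 27.0 TPM in the male CTL pup 5 against 15.4 to 19.4 TPM. Mal was at 22.9 TPM in the female UPS pup 6 against 61.9 to 83.4 TPM, and Pcdhgb4 at 17.1 TPM in the male UPS pup 6 against 4.47 to 6.41 TPM. None of the 31 genes had every UPS male on one side of its CTL mean and every UPS female on the other.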

How the results depend on the processing

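Across 47 alternatives, none of the 99 genes followed in this way changed direction. The count of genes called between UPS and CTL moved by more than 1.5 times from 1415 (771 higher, 644 lower) under 4 of them. Rearing alone gave 253 (144 higher, 109 lower) and array weights 2631 (1615 higher, 1016 lower). A replicate block of pairs with the same sex and number gave 694 (394 higher, 300 lower), and leaving out the female UPS pup 2 gave 2242 (1263 higher, 979 lower). The sample number as a block gave 1076, which is within 1.5 times. The sample numbers were not taken to pair the pups, but low correlations cannot exclude a pairing. Over 13 pairs of a UPS and a CTL pup of the same sex and number, the correlation of deviations ran from -0.0467 to 0.169. In 2 of them the UPS pup correlated best with its own number. Male and female pups of the same number were not compared. Leaving out 1 library gave 1062 (without the male CTL pup 6) to 2242 genes (without the female UPS pup 2), with 576 to 1263 higher and 470 to 979 lower. Without a filter on TPM 413 genes were lower, and with the GC and length trend removed 397 were lower. Under 17 alternatives that left all libraries in or changed the model, 41 of the 99 genes kept their call throughout, and rearing alone lost the most, 48. Scaling without mitochondrial genes put the share of higher calls at 62.7% against 54.5%.

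Within males the count was 5, and 37 with the female CTL pup 9 as male, and within females 216 and 92. The count of UPS against LB was 5, and 1 with rearing alone, 23 with all 46 libraries in one fit, 9 with the number 9 females as males, 8 with the GC and length trend removed, 5 without the female UPS pup 1 and 22 without the female UPS pup 2, the only pups left out of this comparison. Insig1 passed in each of these, and Rin2, Id3, Thrsp and Lrrc8c in all but rearing alone. Counts rest on unknown depth and on littermates taken as independent, and differences of 0.2 or less were often not detectable with 15 pups a group.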
